A study of Rattus norvegicus with 19 samples.

Results

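By the labels, the 19 arrays hold RNA of rat deep motor cortex. The neurotrophins, GDNF, CNTF and their receptors were followed on them through 9 genes. These were Bdnf, Ntf3, Ngfr, Ntrk2, Ntrk3, Gdnf, Gfra1, Ret and Cntf. They were chosen by name, and every probe set annotated to 1 of these symbols alone was taken, which gave 17 of the 31042 probe sets tested. The lesioned rats were adult female Fischer 344 animals of 150 to 200 g whose dorsal columns had been cut with a wire knife at the third cervical segment, and tissue was taken at days 1, 3, 7, 14 and 49 (n = 3 each). The control rats were of the same strain, sex and stage (n = 4), and the labels do not say whether they had a sham operation. The labels place the tissue in the deeper layers of motor cortex, fore- and hindlimb fields alike. There the layer V corticospinal neurons lie among glia, vessels and other neurons. Levels of markers of these and other cells are given below. Some of them sit poorly with this label, and the identity of the tissue was not tested. The labels call the arrays replicates without saying that each is 1 animal, so the p-values measure the spread between these samples. In such bulk tissue, fewer cells of a type and less RNA per cell cannot be told apart.

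Neurotrophins are secreted proteins that keep neurons alive and shape their synapses. BDNF acts through the tyrosine kinase TrkB (Ntrk2) and neurotrophin-3 through TrkC (Ntrk3), while the p75 receptor (Ngfr) binds all neurotrophins and their unprocessed forms. GDNF binds the lipid-anchored co-receptor GFRa1, and the pair activates the kinase Ret. CNTF is a cytokine of the interleukin-6 family that lacks a classical secretion signal and signals through a receptor with gp130 and the LIF receptor. In the adult central nervous system CNTF is made mainly by astrocytes, and cortical BDNF is made by neurons in an activity-dependent way. BDNF, neurotrophin-3, GDNF and CNTF have all been studied as survival or growth factors for injured motor pathways.

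No member passed the threshold at any time with all 19 arrays at the same weight, while a fit with array weights called members at days 1 and 49. With limma and Benjamini-Hochberg adjustment over all 31042 probe sets, 0 of 17 member probe sets had an adjusted p under 0.05 at day 1, where 0.0354% of all probe sets did. The count was also 0 of 17 at days 3, 7, 14 and 49, where 0% of all probe sets passed, and in the F test over the 5 times, where 0.0129% passed. Array weights are meant to give arrays that deviate less influence. With them 1 of 17 passed at day 1 (Cntf, higher), where 0.564% of all probe sets did. The count was then 0 of 17 at day 3 (0.00644%), day 7 (0%) and day 14 (0.029%). It was 6 of 17 at day 49 (21.0%), all lower, and 9 of 17 in the F test (20.7%). The weighted day 49 fit leaned towards 1 array, day49 replicate 3, as the last section describes. At an unadjusted p under 0.05, 2 of 17 passed at day 1 (1.64% of all probe sets), 0 at day 3 (0.908%), 0 at day 7 (0.886%), 2 at day 14 (13.1%), 3 at day 49 (15.4%) and 2 in the F test (4.41%). The shares of members at days 14 and 49 (11.8% and 17.6%) lay close to those of all probe sets. With 19 arrays the largest differences among the members were in Cntf at day 1, in Bdnf at day 49 and, at day 14, in Ngfr, where 1 array set the value. Below, signals are log2 values after RMA, a difference is day minus control on that scale, and a level is compared only within a probe set.

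A pair of arrays stood apart from the rest and touch many of these values. The median correlation with the other arrays was 0.931 for day14 replicate 2 and 0.969 for day49 replicate 2, against at least 0.994 in the 17 others. The gap between the 3' and 5' beta-actin control probes, which widens in degraded RNA, was 2.24 in day14 replicate 2, 0.846 in day49 replicate 2 and at most 1.29 in the 17 others. Each result is given with all 19 arrays and, where it matters, with the 17 others, a choice made after these arrays were known. The groups' arrays did not overlap with control in 3 of 17 members at day 1 (6.94% of all probe sets), 1 at day 3 (5.47%), 1 at day 7 (7.05%), 1 at day 14 (9.05%) and 3 at day 49 (10.1%). The 17 arrays hold only 2 of day 14 and 2 of day 49, and 2 arrays miss the control range more readily than 3. Over the 17 arrays the counts were 2 at day 14 (14.6%) and 4 at day 49 (14.7%) and the same at the other times. Over the 17 arrays 0 of 17 members passed in every comparison too, where 0.219% of all probe sets passed at day 1, 0.135% in the F test and 0% at each later day. At an unadjusted p under 0.05 the member counts over 17 arrays were 4 at day 1 (7.12% of all probe sets), 1 at day 3 (4.56%), 2 at day 7 (4.89%), 0 at day 14 (5.68%), 4 at day 49 (12.0%) and 6 in the F test (7.07%). By rank of mean signal over all probe sets, the neuronal markers lay between the 62.3rd percentile (Syt1) and the top (Nefl). The layer V markers Crym, Bcl11b and Fezf2 lay at the 78.9th, 51.3rd and 30.4th percentiles. Among glial and interneuron markers Aqp4 (15.5), Mobp (17), Gad1 (17.8), Slc1a2 (22), Mog (25) and Gad2 (26.5) were dim. Mbp (99.7), Pvalb (97.5), Cnp (94.9), Sst (94) and Gja1 (92.2) were bright. Alb, Ins2 and Myh6, not expected in cortex, lay between 23.8 and 36.3, so a dim probe set here cannot be told from one with no transcript. The Schwann cell markers Prx (92) and Pmp2 (86.5) were bright, as were the meningeal and fibroblast markers, from Col1a1 (80.7) to Dcn (98.8). Of the members, Ret 1370989_at lay at 98.8 and Ngfr at 95.9. Aqp4, Slc1a2, Gad1, Gad2 and Fezf2 thus lay no higher than genes not expected in cortex. Schwann cell and fibroblast markers were bright, as were the neuronal markers Snap25 and Nefl and the interneuron markers Pvalb and Sst. The dim markers and the bright Schwann cell and fibroblast markers sit poorly with the label of deep motor cortex. Whether the tissue is as labelled was not tested, and the cells that the members read are not known.

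**Figure D1:**
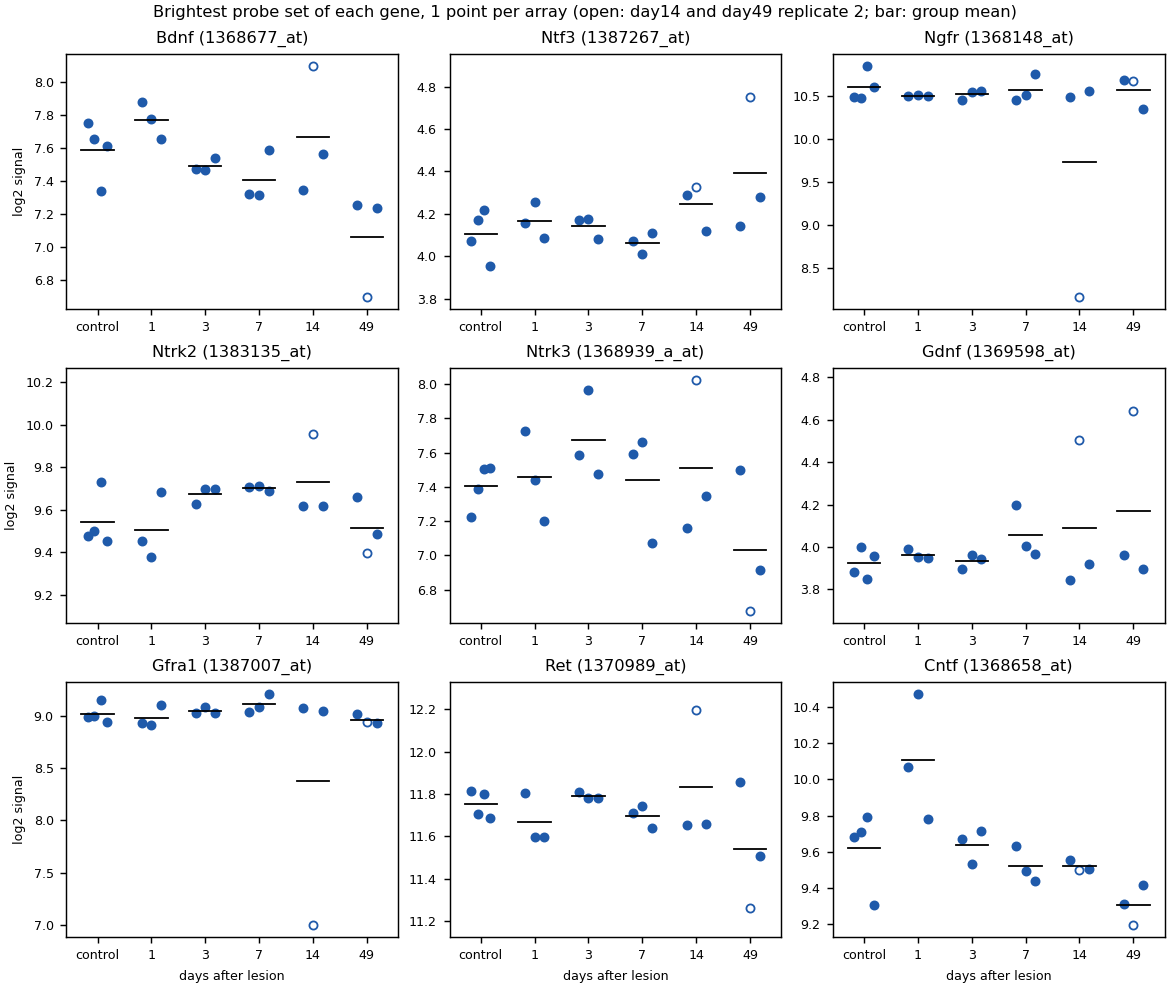
Log2 signal (vertical axes, a scale per panel) of the brightest probe set of each gene by days after lesion, with 1 point per array and a bar at each group mean; open points are day14 replicate 2 and day49 replicate 2. Cntf at day 1 averages 10.11 against 9.62 in control, and the open points are the lowest of day 14 in Ngfr and Gfra1 and the highest of day 49 in Ntf3 and Gdnf.

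The start regions of Cntf and Bdnf, which differed most at days 1 and 49, are shown here as RefSeq gives them (assembly GRCr8), each as the 250 bases before an annotated start, on the gene's strand. Cntf, on chromosome 1, has 1 such window (chr1:219314536-219314785, minus strand), and Bdnf, on chromosome 3, has 6. Of these 1 is shown (chr3:116637608-116637857, plus strand), picked because it alone held the core of a cAMP response element.
Cntf: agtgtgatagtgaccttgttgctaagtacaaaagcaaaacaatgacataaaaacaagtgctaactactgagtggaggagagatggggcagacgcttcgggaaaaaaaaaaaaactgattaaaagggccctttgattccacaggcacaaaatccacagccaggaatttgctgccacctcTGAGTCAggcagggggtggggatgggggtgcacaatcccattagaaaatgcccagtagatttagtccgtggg
Bdnf: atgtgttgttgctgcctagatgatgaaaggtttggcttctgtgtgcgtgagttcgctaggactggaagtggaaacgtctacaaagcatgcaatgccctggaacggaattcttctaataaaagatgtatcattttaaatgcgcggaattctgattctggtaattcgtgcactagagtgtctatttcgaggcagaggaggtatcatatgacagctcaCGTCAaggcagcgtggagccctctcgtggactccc
Capitals mark an AP-1 element in Cntf and, in Bdnf, the core of a cAMP response element read on the other strand. The motifs searched on both strands were the cAMP response element TGACGTCA and, overlapping with it, its core TGACG. The others were the AP-1 element, written TGANTCA, the STAT element, written TTCNNNGAA, and the C/EBP element, written TTGCNNAA. The AP-1 letters stood 72 to 66 bases before the Cntf start, and 6.34% of 33469 windows of this length held such a match. The core stood 35 to 31 bases before the Bdnf start shown, and 18.2% of windows held it. That share is for a single window, and a match somewhere in 6 windows is more likely. Of the 5 other Bdnf windows, 1 had a STAT match (7.67% of windows), 1 an AP-1 match and 3 had none of the motifs. The Cntf window had no STAT, C/EBP or cAMP element letters. These matches are descriptions of sequence, and the arrays did not measure binding.

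Among the ligands, Bdnf, the ligand of TrkB, was read by 2 probe sets. The brighter one, 1368677_at, gave 7.88, 7.78 and 7.65 at day 1, against 7.75, 7.65, 7.34 and 7.61 in control. The day 1 mean was 7.77 ± 0.11 (SD, n = 3) and the control mean 7.59 ± 0.18 (SD, n = 4), and the groups overlapped. The difference was 0.18 (SE 0.16, 95% interval -0.17 to 0.53, limma adjusted p = 1). The second, dimmer probe set, 1368678_at, differed by 0.16 (SE 0.16) at day 1.

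At day 49 the brighter Bdnf probe set stood at 7.25, 6.70 and 7.23, and all 3 arrays lay below the lowest control array. The lowest of them was day49 replicate 2, an array that stood apart. The mean was 7.06 ± 0.32 (SD, n = 3) at day 49 and 7.59 ± 0.18 in control, a difference of -0.53 (SE 0.16, interval -0.88 to -0.18, a ratio of 0.694). It had an unadjusted p of 0.00558 and an adjusted p of 0.306 in limma's fit. Without the 2 arrays that stood apart it was -0.35 (SE 0.11, interval -0.57 to -0.12, adjusted p = 0.239), so the size rests partly on 1 array. With array weights it was -0.42 (adjusted p = 0.00329). The dimmer Bdnf probe set went the other way at day 49, with 5.88, 6.54 and 5.90 at day 49, against 5.96, 5.97, 5.86 and 5.63 in control. Its difference was 0.25 (SE 0.16, adjusted p = 0.401) with 19 arrays and 0.03 (SE 0.09) with 17. The probe sets of Bdnf thus did not show the same difference, and day49 replicate 2 was the lowest array of one and the highest of the other.

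Between these times the brighter Bdnf probe set averaged 7.49 ± 0.04 at day 3 and 7.41 ± 0.16 at day 7 (SD, n = 3 each). At day 14 it gave 7.35, 8.10 and 7.56, and the highest value was that of day14 replicate 2. Over the 17 arrays the group means ran, from high to low, day 1, control, day 3, day 14, day 7 and day 49. Of the neighbours of control in that order, day 1 differed from it by 0.18 (interval -0.02 to 0.38) and day 3 by -0.10 (interval -0.30 to 0.10), so neither passed beyond its error. By the F test Bdnf had an unadjusted p of 0.015 (adjusted p = 0.724).

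Ntf3, which encodes neurotrophin-3, the ligand of TrkC, had a dim probe set, with 26.3% of all probe sets at or below its mean signal. It gave 4.14, 4.75 and 4.28 at day 49, against 4.07, 4.17, 4.22 and 3.96 in control. The high value was day49 replicate 2, and the other values overlapped with control. The difference was 0.29 (SE 0.11, unadjusted p = 0.0232, adjusted p = 0.306) with 19 arrays and 0.11 (SE 0.08, adjusted p = 0.642) with 17. Without day49 replicate 1 it was 0.41, with adjusted p = 0.0435, the one leave-out that brought a member past the threshold, and that fit keeps day49 replicate 2. At days 1, 3, 7 and 14 the Ntf3 differences lay between -0.04 and 0.14.

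**Figure D2:**
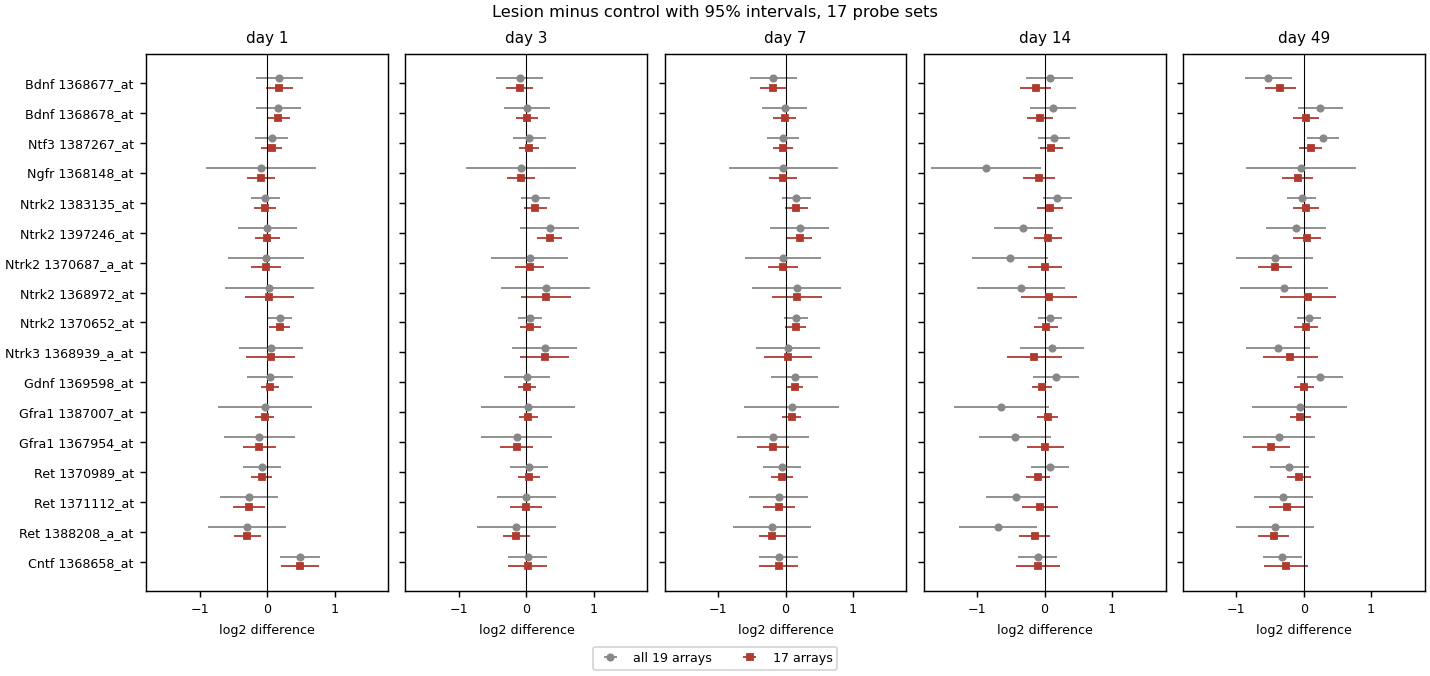
Difference from control on the log2 scale (horizontal axes) with its 95% interval for the 17 probe sets at each day; grey circles are the fit of 19 arrays and red squares that of 17. All 17 intervals lie inside -1 to 1 at days 1, 3 and 7 with 19 arrays and at every day with 17, and the widest grey intervals belong to Ngfr and Gfra1.

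Ntrk2 encodes TrkB, the BDNF receptor, made in a full-length kinase form and in truncated forms that astrocytes carry. It had 5 probe sets, and the form that each one reads was not determined here. Probe set 1397246_at gave 8.48, 8.50 and 8.56 at day 3, against 8.11, 8.11, 8.04 and 8.42 in control. All 3 day 3 arrays lay above all 4 control arrays. The mean was 8.52 ± 0.04 (SD, n = 3) at day 3 and 8.17 ± 0.17 (SD, n = 4) in control. The difference was 0.35 (SE 0.21, adjusted p = 1), and over 17 arrays its SE was 0.09 (interval 0.16 to 0.53, unadjusted p = 0.00109, adjusted p = 0.759). It was the one member whose day 3 arrays did not overlap with control.

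The other Ntrk2 probe sets differed by 0.13, 0.05, 0.29 and 0.06 at day 3, in order of falling brightness, and each overlapped with control. At day 7, 1397246_at was at 8.37, 8.38 and 8.40, and its difference was 0.21 (SE 0.21 with 19 arrays, 0.09 with 17). The brightest, 1383135_at, gave 9.71, 9.71 and 9.69 at day 7, against 9.48, 9.50, 9.73 and 9.45 in control, a difference of 0.16 (SE 0.10, adjusted p = 1). Control replicate 3 was the highest of the 7 arrays, so the groups overlapped. The dimmest, 1370652_at, with 4.1% of all probe sets at or below its mean, was at 3.39, 3.47 and 3.45 at day 1, against 3.36, 3.26, 3.25 and 3.14 in control. All 3 day 1 arrays lay above control, and the difference was 0.18 (SE 0.09, unadjusted p = 0.0492, adjusted p = 1).

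At day 49 the Ntrk2 probe sets disagreed. Probe set 1370687_a_at gave 7.99, 7.68 and 7.45, against 8.15, 8.15, 8.00 and 8.26 in control, and all 3 day 49 arrays lay below control. The difference was -0.43 (SE 0.27, adjusted p = 0.391) with 19 arrays and -0.42 (SE 0.12, interval -0.67 to -0.17, adjusted p = 0.226) with 17. With array weights it was -0.65 (adjusted p = 0.000781). The brightest probe set differed by -0.03 with 19 arrays and 0.03 with 17, and 1397246_at by -0.11 and 0.06.

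**Figure D3:**
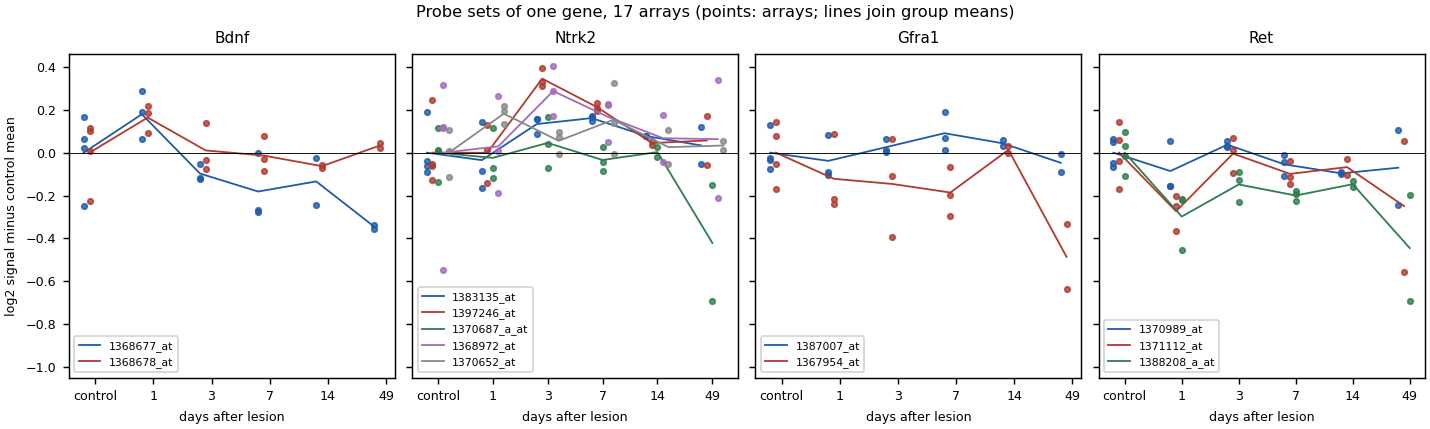
Log2 signal minus the control mean (vertical axis) by days after lesion for every probe set of Bdnf, Ntrk2, Gfra1 and Ret over the 17 arrays; points are arrays and lines join group means. Bdnf, Ntrk2, Gfra1 and Ret each hold probe sets that part at day 49, and 1397246_at of Ntrk2 is highest at day 3.

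Ntrk3, which encodes TrkC, the receptor of neurotrophin-3, spanned more than most probe sets, 1.05 over the 17 arrays, wider than in 96.2% of all probe sets. It gave 7.58, 7.97 and 7.47 at day 3, against 7.22, 7.39, 7.51 and 7.51 in control, a difference of 0.27 (SE 0.23, adjusted p = 1). At day 49 it was at 7.50, 6.67 and 6.91, a difference of -0.38 (SE 0.23, adjusted p = 0.378) with 19 arrays and -0.20 (SE 0.19) with 17. The groups overlapped at both times.

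Ngfr, the p75 receptor, was at 10.49, 10.51 and 10.50 at day 1, against 10.48, 10.47, 10.85 and 10.60 in control. Its day 1 arrays differed among themselves by less than its control arrays, and the difference was -0.10 (interval -0.92 to 0.72 with 19 arrays, -0.31 to 0.11 with 17). At day 14 it gave 10.48, 8.16 and 10.56, and the low value was day14 replicate 2. The day 14 mean of 9.73 ± 1.36 (SD, n = 3) against 10.60 ± 0.17 (SD, n = 4) in control made a difference of -0.87 (SE 0.38, adjusted p = 0.365). Without the 2 arrays that stood apart the difference was -0.08 (SE 0.11, interval -0.32 to 0.15). At days 3, 7 and 49 Ngfr differed by -0.08, -0.03 and -0.03.

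In the GDNF arm, the probe set of Gdnf was dim, with 22.0% of all probe sets at or below its mean. It gave 4.20, 4.01 and 3.97 at day 7, against 3.88, 4.00, 3.85 and 3.96 in control, a difference of 0.13 (SE 0.16, adjusted p = 1). Over 17 arrays this difference had SE 0.06, interval 0.01 to 0.26 and adjusted p = 0.986. The 2 highest Gdnf values of all arrays were 4.64 in day49 replicate 2 and 4.51 in day14 replicate 2. With them the differences were 0.24 at day 49 and 0.17 at day 14, and over 17 arrays they were 0.01 and -0.04.

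Gfra1, the GDNF co-receptor, had a steady brighter probe set, 1387007_at. Over the 17 arrays it ran from 8.91 to 9.21, and 20.2% of all probe sets spanned as little or less. Its differences over 17 arrays lay between -0.05 at day 49 and 0.09 at day 7, with every interval inside -0.21 to 0.23. Its second probe set, 1367954_at, gave 8.03, 8.24 and 7.73 at day 49, against 8.20, 8.32, 8.45 and 8.51 in control. The day 49 difference was -0.37 (SE 0.25, adjusted p = 0.425) with 19 arrays and -0.49 (SE 0.13, interval -0.76 to -0.21, adjusted p = 0.226) with 17. With array weights it was -0.56 (adjusted p = 0.00236). Here the lowest value was again day49 replicate 3, and the brighter probe set showed no such difference.

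Ret, the signalling kinase of the GDNF receptor, had 3 probe sets. The brightest, 1370989_at, was at 11.81, 11.60 and 11.60 at day 1, against 11.82, 11.71, 11.80 and 11.69 in control, a difference of -0.09 (SE 0.13). Probe set 1371112_at gave 8.91, 8.86 and 8.75 at day 1, against 9.17, 8.94, 9.26 and 9.07 in control. Probe set 1388208_a_at gave 8.53, 8.53 and 8.29 at day 1, against 8.78, 8.73, 8.84 and 8.64 in control. In both of these probe sets all day 1 arrays lay below all control arrays. They were designed on the same transcript record, so they are not independent readings. The differences were -0.27 (SE 0.21) and -0.30 (SE 0.27), both with adjusted p = 1. Over 17 arrays the SEs were 0.11 and 0.09 and the adjusted p 0.626 and 0.404.

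By day 3 the Ret probe sets differed from control by 0.04, -0.00 and -0.15 in order of falling brightness. At day 7, 1388208_a_at gave 8.52, 8.57 and 8.56, all below control, a difference of -0.20 (SE 0.27, adjusted p = 1, and SE 0.09 over 17 arrays with adjusted p = 0.986). At day 49, 1388208_a_at gave 8.55, 8.35 and 8.06, all below control, a difference of -0.43 (SE 0.27, adjusted p = 0.402) with 19 arrays and -0.45 (SE 0.11, interval -0.67 to -0.22, adjusted p = 0.226) with 17. That was the smallest unadjusted p of any member at any time over 17 arrays, 0.000831. Over 17 arrays 1371112_at differed by -0.25 (SE 0.13) and the brightest Ret probe set by -0.07 (SE 0.09) at day 49. With array weights the day 49 differences were -0.22, -0.47 and -0.64 in order of falling brightness (adjusted p = 0.0356, 0.00238 and 0.000747). The arrays of the brightest were split, with 11.86 in day49 replicate 1 and 11.51 in day49 replicate 3. At day 49 the members that did not overlap with control all lay below it: 1368677_at of Bdnf, 1370687_a_at of Ntrk2 and 1388208_a_at of Ret, joined over 17 arrays by 1367954_at of Gfra1. Day49 replicate 3, the array with the widest beta-actin gap of the 17, was their lowest in the Ntrk2, Gfra1 and Ret probe sets, and the part of RNA quality was not tested.

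Cntf had the largest difference at day 1. Its probe set gave 10.07, 10.48 and 9.78 at day 1, against 9.68, 9.71, 9.79 and 9.30 in control. Day1 replicate 3 lay within the control range, just below control replicate 3, and the other day 1 arrays lay above all controls. The mean was 10.11 ± 0.35 (SD, n = 3) at day 1 and 9.62 ± 0.22 (SD, n = 4) in control, a difference of 0.49 (SE 0.14, interval 0.19 to 0.78, a ratio of 1.40). In limma's fit the unadjusted p was 0.00282 and the adjusted p 1, over 17 arrays the adjusted p was 0.271, and with array weights the difference was 0.48 with adjusted p = 0.045. Without day1 replicate 2 the difference was 0.30 and without day1 replicate 3 it was 0.65. The residual SD of this probe set was 0.19 over 19 arrays and 0.20 over 17. Day14 replicate 2 lay within the range of the 17 other arrays, and day49 replicate 2, at 9.19, lay below it (lowest 9.30).

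At days 3 and 7 the Cntf arrays overlapped with control. The day 3 arrays gave 9.67, 9.53 and 9.71, and the day 7 arrays 9.63, 9.49 and 9.44. At day 49 it stood at 9.31, 9.19 and 9.42, and control replicate 4, at 9.30, overlapped with these. The day 49 difference was -0.32 (SE 0.14, interval -0.61 to -0.02, unadjusted p = 0.036, adjusted p = 0.314) with 19 arrays and -0.26 (SE 0.15, adjusted p = 0.534) with 17. The group means ran, from high to low, day 1, day 3, control, day 7, day 14 and day 49. Cntf had the smallest F test p of the members, 0.0017 (adjusted p = 0.724).

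Of the markers of other cell types, 0 passed the threshold at any time over 19 arrays. Over 17 arrays 1 of 6 meningeal and 1 of 2 Schwann cell markers passed at day 1, both lower, and 1 of 6 astrocyte markers passed in the F test. The mean log2 signal of 6 astrocyte markers lay between 5.89 and 5.96 at day 1 and between 5.72 and 5.84 in control, without overlap. Of the 6, 4 were higher, their median difference was only 0.04, and Gfap had their smallest limma p. The 5 oligodendrocyte markers lay between 7.35 and 7.43 at day 1 and between 7.23 and 7.36 in control, with 4 of 5 higher. The 6 endothelial and pericyte markers lay between 6.42 and 6.59 at day 1 and between 6.29 and 6.49 in control, with 5 of 6 higher. The 7 microglial markers lay between 6.12 and 6.40 at day 1 and between 6.10 and 6.20 in control. For the 2 Schwann cell markers the means lay between 9.05 and 9.15 at day 1 and between 9.08 and 9.48 in control. The part of any of these cells in the Cntf difference was not tested. The 6 meningeal and fibroblast markers lay between 9.58 and 10.02 at day 1, between 9.46 and 10.03 at day 49 and between 9.85 and 10.19 in control. Their median difference was -0.23 at day 1 and -0.25 at day 49, with 5 of 6 lower at each. At day 49 the 2 Schwann cell markers had a median difference of -0.34 (-0.39 over 17 arrays), with 2 of 2 lower. For the 3 layer V markers it was -0.27 (0.10 over 17 arrays), with 2 of 3 lower, and for the 5 neuronal markers 0.01. The part of any of these cells in the lower values of 2 Ret probe sets at day 1 was not tested. Nor was it tested for the single Bdnf, Ntrk2, Gfra1 and Ret probe sets that were lower at day 49. Of these markers 0 were at 0, since RMA gives every probe set a positive signal.

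**Figure D4:**
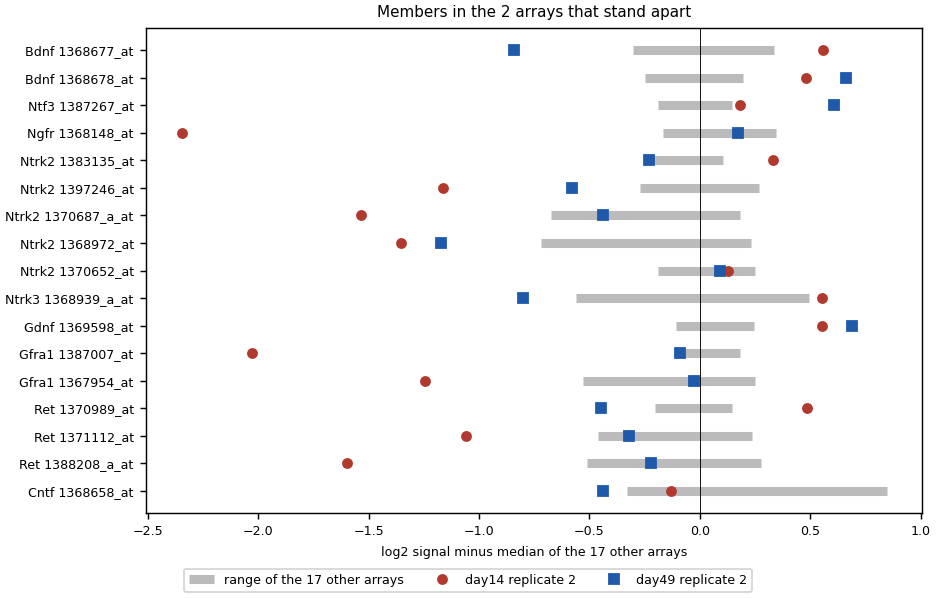
Log2 signal of each member in day14 replicate 2 (red circles) and day49 replicate 2 (blue squares) minus the median of the 17 other arrays, whose range is the grey bar. Day14 replicate 2 lies outside that range in 15 of 17 members, 8 below and 7 above, with Ngfr at -2.35 and Gfra1 1387007_at at -2.03.

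The day 14 values rest on day14 replicate 2. It lay outside the range of the 17 other arrays in 15 of 17 members, and in 66.6% of all probe sets. Bdnf was above that range and Ngfr, Gfra1, 2 probe sets of Ret and 3 of Ntrk2 were below it, so probe sets of a single gene parted (Ret 1370989_at at 0.48 and Ret 1388208_a_at at -1.60 from the median). With 19 arrays the Ret 1388208_a_at difference at day 14 was -0.69 (SE 0.27, unadjusted p = 0.023, adjusted p = 0.365), and without both arrays it was -0.15 (SE 0.11). Over 17 arrays all 17 members lay between -0.15 and 0.10 at day 14, with intervals inside -0.56 to 0.49. Day49 replicate 2 lay outside the range of the 17 in 9 of 17 members and in 63.5% of all probe sets.

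As a set, the members' differences over 19 arrays had a median of -0.10 at day 14 and -0.21 at day 49, against 0.07 and 0.01 over all probe sets, and a median size of 0.29 at day 49, against 0.15. Over 17 arrays their median difference was -0.00 at day 1, 0.03 at day 3, -0.03 at day 7, -0.04 at day 14 and -0.07 at day 49, against 0.01, -0.00, 0.00, 0.01 and 0.01 over all probe sets. The median size of the difference was 0.09 at day 1 (0.06 over all probe sets), 0.06 at day 3 (0.05), 0.10 at day 7 (0.05), 0.07 at day 14 (0.07) and 0.09 at day 49 (0.08). In the fit of 17 arrays n was 2 at days 14 and 49. A 2-fold change in either direction lay outside the 95% interval of all 17 members at every time over 17 arrays. With 19 arrays this held for all 17 at days 1, 3 and 7, for 12 at day 14 and for 15 at day 49. For Ntf3, Gdnf and Ntrk2 1370652_at, whose dim signals cannot be told from those of absent transcripts, such an interval bounds the signal and not the change of the gene. The times share the 4 control arrays, so a control array that is high or low moves all 5 differences of a probe set together.

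The wider pathway gave 86 of 101 listed genes with a probe set, in 7 lists, and 0 of them passed at any time with 19 or with 17 arrays. At an unadjusted p under 0.05 with 19 arrays, 4 of 86 passed at day 1 (1.64% of all probe sets), 0 at day 3 (0.908%), 2 at day 7 (0.886%), 13 at day 14 (13.1%) and 8 at day 49 (15.4%). Each list is named by its gene of smallest p. Among 14 genes that respond to BDNF and TrkB, 12 were above control at day 1, 6 at day 3, 10 at day 7, 11 at day 14 and 7 at day 49. Of these 14 genes 0 passed the threshold. Their median difference at day 1 was 0.08, against 0.01 over all probe sets, and the share of all probe sets above control was not counted. In this list the named gene Npy, which encodes a neuropeptide, was at 8.04 at day 14 and 6.34 in control, a difference of 1.69 (SE 0.41, adjusted p = 0.365). The mean of 5 interneuron markers lay between 7.06 and 7.28 at day 14 and between 6.53 and 6.57 in control. Their median difference was only 0.10 (0.07 over 17 arrays), less than the shift of their mean, and Vip had their smallest limma p. Gad1 and Gad2 of this list were no brighter than genes not expected in cortex, so the cells that these markers follow are not known. The part of these markers' cells in the Npy value was not tested. Among 15 genes of CNTF-family cytokines, receptors and signalling, the kinase gene Jak2 was at 5.81 at day 49 and 6.27 in control (-0.45, SE 0.16, adjusted p = 0.306), and the day 1 list median was 0.02 beside the Cntf value. Among 11 partners of p75, Mag, a myelin protein, differed by 0.30 at day 14 (SE 0.13, adjusted p = 0.365). Among 10 genes of proneurotrophin processing the protease gene Mmp7 differed by 0.31 at day 14 (SE 0.11, adjusted p = 0.365) and by 0.19 over 17 arrays. Among 22 Trk adaptors and kinases Shc2 differed by -0.31 at day 49 (SE 0.12, adjusted p = 0.306) and by -0.13 over 17 arrays. Among 8 other GDNF-family genes the ligand gene Pspn differed by 0.29 at day 49 (SE 0.11, adjusted p = 0.306) and by 0.11 over 17 arrays. Among 6 other neurotrophin ligands and receptors the sortilin-family gene Sorcs1 differed by 0.34 at day 14 (SE 0.17, adjusted p = 0.369) and by 0.06 over 17 arrays.

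The genes whose signals ranked the arrays most like Cntf, out of 14216 with 1 probe set each, were Slc3a2, Acy1, Sike1, Tnfaip1 and Dnaaf5. Their Spearman coefficients with Cntf over the 19 arrays ran from 0.833 to 0.802, and those over 17 arrays from 0.77 to 0.841. For the brighter Bdnf probe set they were Spcs3 (0.917), Sec23b (0.892), Acot1 (0.868), Rgs5 (0.865) and Smad4 (0.826), with 0.757 to 0.885 over 17 arrays. Rgs5, a pericyte gene, differed by -0.60 at day 49 (adjusted p = 0.306). These coefficients describe the arrays, which share their normalization and the 2 that stood apart. They were the highest of 14216 each and carry no test.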

How the data were processed

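RNA from 19 samples was hybridised to arrays as biotin-labelled cRNA made from 6 ug of total RNA, per the labels' protocols. The deposited values are log2 signals per probe set, made by the authors with RMA (no version is stated), as the submitters' processing notes record. Because RMA equalises the arrays' distributions, these values cannot show a global change in RNA. The 57 array controls were left out, which left 31042 probe sets. Symbols came from the platform annotation, updated by gene ID. A single symbol was found for 20826 probe sets, several for 436 and none for 9780.

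limma 3.58.1 (R 4.3.3) fitted the 6 group means to the 19 arrays, and eBayes gave two-sided p, adjusted by Benjamini-Hochberg over all probe sets, with a threshold of 0.05. Intervals are 95% with 13 residual and 2.76 prior degrees of freedom. It was tested on simulated data. Arrays allow no depth; their number limits the precision. The members, lists and tests were chosen with earlier results of these data known. All member probe sets were named; of each pathway list, genes past the threshold or the one of smallest p; and the 5 genes most like Bdnf and the member of smallest F test p.

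The labels give the groups the same replicate numbers but no meaning for them. Deviations from the group means correlated by 0.117 to 0.269 in the 3 like-numbered pairs of day 1 and control, and in no other comparison by over 0.1 in all 3. Alternatives were centring, quantile normalization again, a filter, trend and robust eBayes, array weights, a replicate block, 2-group fits, 1 probe set per gene and leaving out each replicate; the fit of 17 arrays was chosen after the data were seen. Plots used matplotlib 3.10.9 (Python 3.11.15).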

Additional observations from a re-analysis of the deposited data

Results flagged for a closer look

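In 0 of the 17 member probe sets did a control array stand apart from the other 3 by Dixon's criterion at the 95% level. Groups of 3 arrays were not tested this way.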

How the results depend on the processing

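With 19 arrays and at each time and in the F test, 0 member probe sets were called under centring on the array median, repeated quantile normalization, a cut at the median signal, trend and robust eBayes, the replicate block, 1 probe set per gene, the 17 arrays and, for single times, a fit of only the 2 groups. With the replicate number as a block, the Cntf difference at day 1 was 0.38 (unadjusted p = 0.0171) in place of 0.49, and 0 members were called. Over all probe sets at day 1, 11 were called in the main fit, 3 with the block and 19 with 2 groups. With 17 arrays 68 were called and with array weights 175. Such weights are meant to give arrays that deviate less influence. Array weights called 1 member at day 1 (Cntf 1368658_at, 0.48, adjusted p = 0.045), 6 at day 49 and 9 in the F test. The 6 were Bdnf 1368677_at (-0.42), Ntrk2 1370687_a_at (-0.65), Gfra1 1367954_at (-0.56) and Ret 1370989_at (-0.22), 1371112_at (-0.47) and 1388208_a_at (-0.64), with adjusted p between 0.000747 and 0.0356. For Ntrk2 1370687_a_at and Ret 1388208_a_at the weighted differences were larger in size than those over 17 arrays (-0.42 and -0.45), where day49 replicates 1 and 3 count alike. Day49 replicate 3 was the lowest array of both, so the weighted day 49 fit leaned towards it. The weight of each array is not given here. With weights 6514 of all probe sets were called at day 49 and 6413 in the F test, against 0 and 4. The cause was not tested. The F test called 42 with 17 arrays, 8 with 1 probe set per gene, 2 with trend and robust eBayes, 1 after quantile normalization and 0 with the block. At day 3 weights called 2 and the 2-group fit 3 of all probe sets, at day 14 they called 9 and 1, against 0. Leaving out 1 array gave 0 to 1 members at day 49. With weights the day 14 differences turned to 0.0418 for Ntrk2 1397246_at, -0.0591 for Gdnf, 0.048 for Gfra1 1387007_at and 0.0397 for Gfra1 1367954_at, and at day 49 to -0.0178 for Gdnf. Without both arrays that stood apart, and likewise without day14 replicate 2, they turned to 0.0448 for Ntrk2 1397246_at, 0.00282 for 1370687_a_at, 0.0674 for 1368972_at, -0.0406 for Gdnf, 0.0439 for Gfra1 1387007_at and 0.0132 for 1367954_at. Over single arrays left out, the lowest and highest values were -0.499 and 0.0448, -0.787 and 0.00282, -0.611 and 0.0674, -0.0406 and 0.29, -0.994 and 0.0439, and -0.676 and 0.0132 in that order. Of the 50 differences no larger than their SE, 20 turned sign in some setting other than leaving out 1 array.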
